A study of Mus musculus with 10 samples.

Results

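Granulosa cells are the somatic cells that surround the oocyte in an ovarian follicle, and the 6 captures of them from saline-treated mice are described here by how much Inha RNA each library held. The 6 saline libraries of the 10 in the series were taken, and the level of Inha, as log2(CPM + 1) with CPM the counts scaled per 1000000 reads of the library, served as a continuous covariate across them. Of 35087 gene symbols listed, the 7479 with a mean of at least 20 CPM over the 6 libraries were described, with Inha itself left out. Dolpp1, at a mean of 20.00 CPM with a slope of 0.07, lay just inside that limit and Magohb, at 19.98 CPM with a slope of -0.05, just outside. Because the libraries were ordered by a value measured in them, and genes were selected on their correlation with that value in the same libraries, every value from the saline libraries below is a description with n = 6 and carries no test.

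The mice were wild-type C57B6/J females aged 3 weeks. They were injected intraperitoneally with saline or with N-acetyl-L-cysteine (NAC), a thiol that supplies cysteine for glutathione, at 150 mg/kg on 3 consecutive days, and ovaries were taken on day 4 counted from the first injection. Granulosa cells were cut out by laser microdissection, and polyadenylated RNA was amplified by GEO-seq, a method for small captured areas. The labels give batch 1 for all 10 libraries (6 saline, 4 NAC) and neither tie a library to an animal nor state the stage of the follicles captured, so the spread between libraries may be technical.

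Inha encodes the alpha subunit of inhibin. Paired with a beta subunit (Inhba or Inhbb) it forms inhibin A or B, the hormones by which granulosa cells lower the pituitary's release of follicle-stimulating hormone (FSH), whereas pairs of beta subunits form activins, which act in the opposite sense. Inha is a defining granulosa transcript, is induced by FSH through cyclic AMP, and is abundant in growing antral follicles. Growing follicles also shift in steroid synthesis, in proliferation and in their response to insulin-like growth factor, and the genes of these programmes are described below by role.

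The RefSeq start-site window of Inha is shown with those of 4 genes that followed its level closely, 3 upward (Nap1l5, Rps27, Rpl13) and 1 downward (Ybx3), so that sequence of the members can be set beside their values. Each window runs from 250 bases before to 50 bases after the RefSeq transcription start (build GRCm38.p6), on the gene's own strand. The windows are chr1:75507359-75507658 (plus strand) for Inha, chr6:58907077-58907376 (minus) for Nap1l5, chr3:90213599-90213898 (minus) for Rps27, chr8:123102100-123102399 (plus) for Rpl13 and chr6:131388401-131388700 (minus) for Ybx3. Capitals mark matches on either strand to TGACGTCA (the cyclic AMP response element), to AAGGTCA, which the orphan receptors SF-1 and LRH-1 bind, to AGATAA, a site for the family of zinc-finger factors named after it, to GTAAACA, the site of FOXO proteins, to CCGGAAG, the site of ETS proteins, or to AAGATGGC, the site of YY1, or mark a run of pyrimidines that opens with C at the start site (the TOP motif of translation genes).
Inha: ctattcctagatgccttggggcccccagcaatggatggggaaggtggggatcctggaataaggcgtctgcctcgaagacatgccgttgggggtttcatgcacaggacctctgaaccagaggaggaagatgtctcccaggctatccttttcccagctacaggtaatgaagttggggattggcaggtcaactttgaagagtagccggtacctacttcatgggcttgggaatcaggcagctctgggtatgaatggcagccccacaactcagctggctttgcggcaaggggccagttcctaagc
Nap1l5: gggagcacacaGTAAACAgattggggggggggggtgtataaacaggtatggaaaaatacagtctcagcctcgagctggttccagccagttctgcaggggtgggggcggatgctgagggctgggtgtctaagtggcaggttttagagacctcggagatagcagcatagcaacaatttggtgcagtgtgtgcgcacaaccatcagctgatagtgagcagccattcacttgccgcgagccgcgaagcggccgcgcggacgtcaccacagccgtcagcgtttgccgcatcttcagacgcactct
Rps27: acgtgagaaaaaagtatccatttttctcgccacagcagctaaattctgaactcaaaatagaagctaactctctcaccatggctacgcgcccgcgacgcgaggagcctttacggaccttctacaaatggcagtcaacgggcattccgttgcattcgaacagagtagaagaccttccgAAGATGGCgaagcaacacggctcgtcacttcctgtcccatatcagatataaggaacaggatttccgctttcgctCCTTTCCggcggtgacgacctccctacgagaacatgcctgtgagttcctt
Rpl13: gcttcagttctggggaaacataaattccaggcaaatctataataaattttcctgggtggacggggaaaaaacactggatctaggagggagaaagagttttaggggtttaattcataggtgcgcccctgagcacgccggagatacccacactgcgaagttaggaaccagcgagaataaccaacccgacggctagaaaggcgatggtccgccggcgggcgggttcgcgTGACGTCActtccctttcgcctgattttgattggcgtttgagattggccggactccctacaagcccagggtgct
Ybx3: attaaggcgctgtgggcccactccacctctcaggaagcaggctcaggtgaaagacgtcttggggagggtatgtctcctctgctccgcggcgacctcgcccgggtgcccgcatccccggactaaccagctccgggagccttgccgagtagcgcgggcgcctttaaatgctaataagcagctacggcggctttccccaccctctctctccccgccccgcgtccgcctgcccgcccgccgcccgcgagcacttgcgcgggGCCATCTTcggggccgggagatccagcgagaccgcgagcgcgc
The Inha window lies wholly inside the gene as GENCODE annotates it, which starts at position 75507077, so it is not the sequence upstream of that start, and the sequence there was not searched. The Inha window held none of these letter strings. Nap1l5 held a FOXO match 239 bases before the start, Rps27 a YY1 match 74 bases before it and a pyrimidine run of 7, Rpl13 a cyclic AMP response element 24 bases before it, and Ybx3 a YY1 match 7 bases after it. A match is a description of the letters and was not tested as a binding site.

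Inha (GRCm38 chromosome 1, positions 75507077 to 75510366, plus strand) was at 8249 CPM in saline 1, 10612 in saline 2, 25818 in saline 3, 29095 in saline 4, 28728 in saline 5 and 25491 in saline 6. The level was low in saline 1 and 2 and high in saline 3 to 6, with nothing between. On the log2 scale the whole range was 1.82, the gap between the lower and the higher libraries was 1.26, and saline 3 to 6 lay within 0.19 of each other. The Inha levels were therefore not an even gradient: a slope over the 6 libraries compares mainly saline 1 and 2 with the other 4, and a relation within those 4 could not be assessed over so narrow a range. The 4 NAC libraries, which the choice of libraries did not use, were at 6991, 2489, 8815 and 8944 CPM, so saline 1 fell inside the NAC range and the other saline libraries above it.

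**Figure D1:**
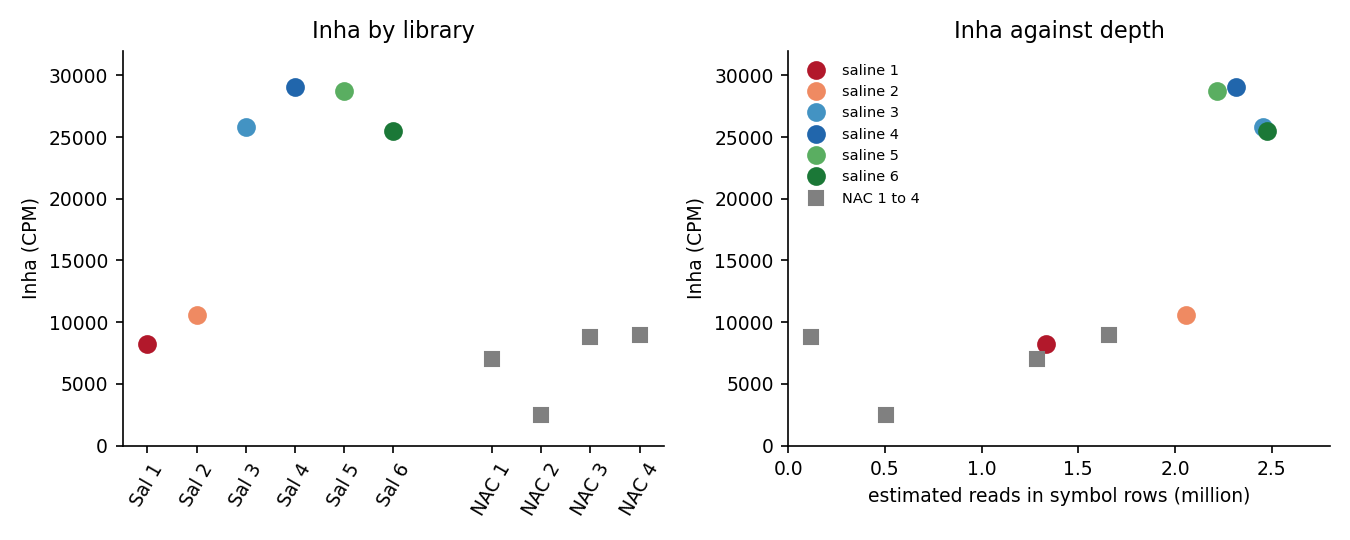
Left, Inha in CPM for each saline library (circles) and each NAC library (grey squares); right, the same against the estimated reads in each library. Saline 1 and 2, at 8249 and 10612 CPM, sit apart from saline 3 to 6, at 25491 to 29095 CPM, and saline 1 is the shallowest saline library.

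Depth moved with Inha: the saline libraries held 1331833 to 2473856 estimated reads, saline 1 the fewest and saline 2 the next fewest, and log2 depth had r = 0.85 and rho = 0.49 with Inha over the 6 libraries. The difference between deposited and effective transcript length, which follows the length of the sequenced fragments, was largest in saline 1 at 235.7 bases and 210.1 to 224.7 bases in the others, with r = -0.68 and rho = -0.60; its part in the slopes was not tested. Between libraries, log2 CPM correlated at 0.879 to 0.943 for pairs of saline 3 to 6 and at 0.795 to 0.865 for pairs with saline 1 or 2. Saline 1 and 2 correlated at 0.812 with each other, so by this measure they did not form a group of their own. Chi-square of the counts per degree of freedom, not adjusted for depth, read differently. It was 13.3 between saline 1 and 2, and 18.7 to 28.6 between either of them and saline 3 to 6. Granulosa genes such as Foxl2, Amhr2, Nr5a2 and Fst were present in all 6 libraries. Markers of other cells varied without following Inha: the summed level of 18 oocyte genes was 1287 CPM in saline 2 and 2756 CPM in saline 4 and 29.7 to 95.4 CPM in the rest, and that of 10 stromal genes was 537 to 927 CPM in saline 2, 5 and 6 and 139 to 170 CPM in saline 1, 3 and 4. Endothelial markers summed to 23.9 to 62.9 CPM, leukocyte markers to 0.814 to 20.1 CPM and erythroid markers to 2.53 to 88.6 CPM. The oocyte score (mean centred log2 CPM of the list) had r = -0.10 with Inha and the stroma and theca score r = 0.05. When every library was thinned to the reads of saline 1, 150 genes rose and 425 fell by the limit given below, of which 134 and 343 were among those called at full depth. In these captured samples fewer cells of a type and less RNA per cell cannot be told apart.

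For each gene a line was fitted to its log2(CPM + 1) against that of Inha; a slope of 1 means that the gene changed by the same fold as Inha, and the standard error (SE) comes from the scatter of the 6 libraries about the line. A gene was said to rise with Inha at a Pearson r of at least 0.9 and to fall at -0.9 or lower. By this limit 163 genes rose, 2.18% of the 7479, and 481 fell, 6.43%. The median slope of all genes was -0.13 and 4846 of the 7479 slopes were negative. In 671 genes (8.97%) saline 1 and 2 were both below the other 4 libraries, and in 1911 genes (25.6%) both were above them. These shares are the background for the counts below.

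Granulosa genes moved in both directions. Of 52 genes listed for follicle growth and granulosa identity, 42 had a mean of at least 20 CPM. Of these, 3 rose (7.14%) and 6 fell (14.3%), beside 2.18% and 6.43% of all genes. The other 33 did not pass the limit on r. The slopes of the 42 ran from -1.86 to 2.05 with a median of -0.08. That median was -0.23 without saline 1, -0.15 without saline 4 and -0.04 without saline 6. Saline 1 and 2 were both lowest in 9 of the 42 (21.4%) and both highest in 15 (35.7%), beside 8.97% and 25.6% of all genes. The median turned to 0.08 with TMM factors, a scaling that assumes most genes do not change, but 23 of the 42 slopes were above the median of all genes with either scaling.

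Among receptors and transport genes, Fshr, the FSH receptor, was at 54.1 and 39.4 CPM in saline 1 and 2 and at 104 to 130 CPM in saline 3 to 6. Its levels did not overlap between the lower and the higher Inha libraries, and its slope was 0.77 ± 0.17 (SE, n = 6). Nap1l5, an imprinted nucleosome-assembly gene, stood at 279 and 322 CPM in saline 1 and 2 and at 692 to 868 CPM in the others, with a slope of 0.87 ± 0.10. Slc38a3, an amino acid transporter, stood at 102 and 110 CPM against 200 to 348 CPM, with a slope of 0.76 ± 0.15. These 3 were the members of the list that rose. Gja1, the gap-junction protein connexin 43 through which granulosa cells are coupled, was at 1699 and 1324 CPM in saline 1 and 2 and at 2542 to 3790 CPM in the others, again without overlap, though its r of 0.869 was under the limit.

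The partners of Inha did not share one pattern. Inhba, the beta A subunit, was at 27.4 CPM in saline 1, 74.1 in saline 2, 306 in saline 3, 128 in saline 4, 946 in saline 5 and 857 in saline 6. Saline 5 and 6 stood far above saline 3 and 4 although Inha was nearly equal in the 4, and the slope was 2.05 ± 0.70. Inhbb, the beta B subunit, was at 327, 961, 489, 436, 1224 and 2274 CPM in saline 1 to 6, with saline 2 above saline 3 and 4 and a slope of 0.45 ± 0.61. Amh, the anti-Müllerian hormone of small growing follicles, went the other way between the same libraries: 254 to 302 CPM in saline 1 to 4 and 110 and 95.8 CPM in saline 5 and 6 (slope -0.49 ± 0.38). Its receptor gene Amhr2 had a slope of 0.00 ± 0.15, and Fst, the activin-binding protein follistatin, one of 0.27 ± 0.13. Cyp19a1, the aromatase that makes oestradiol, was low, at 1.65 to 13.0 CPM in saline 1 to 4, 70.3 in saline 5 and 29.1 in saline 6. Hsd17b1, which reduces oestrone to oestradiol, had a slope of 0.35 ± 0.19, with 731 to 1495 CPM. Inhba, Amh and Cyp19a1 thus had their highest or lowest 2 values in saline 5 and 6. The score of the theca and steroidogenic stroma list was also highest there, at 0.79 and 0.73, beside -0.75 to 0.14 in saline 1 to 4. It rests on 5 of the 10 listed genes, some of which are also listed for luteinization, so it is not specific to theca. The stroma score was highest in saline 2, 5 and 6 (0.85, 0.69 and 1.41), the 3 libraries highest in Inhbb. Whether theca or stromal cells had a part in the values was not tested.

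The genes of the list that fell included growth factor signalling. Kctd14, a BTB-domain gene, was at 1409 and 1219 CPM in saline 1 and 2 and at 232 to 404 CPM in saline 3 to 6, with a slope of -1.38 ± 0.13. Its levels did not overlap between the lower and higher Inha libraries. Igf1, insulin-like growth factor 1, was at 444 and 308 CPM against 127 to 207 CPM (slope -0.75 ± 0.15), and Igfbp5, a binding protein for it that is also listed for atresia, at 228 and 86.1 CPM against 22.1 to 55.0 CPM (slope -1.28 ± 0.30). Igf1r, the receptor of that growth factor, had a slope of -0.65 ± 0.18 and did not pass. In Igf1, Igfbp5 and Igf1r saline 1 was the highest library, with saline 2 between it and the rest.

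Npr2, the receptor for C-type natriuretic peptide through which granulosa cells help hold the oocyte in meiotic arrest, was at 523 and 336 CPM in saline 1 and 2 and at 166 to 231 CPM in the others, with a slope of -0.68 ± 0.12. Ccnd2, the FSH-responsive cyclin D2, fell from 3695 and 3217 CPM to 1961 to 2485 CPM, with a slope of -0.41 ± 0.06. Wt1, a transcription factor of early granulosa cells, had a slope of -1.86 ± 0.49 and an r of -0.886 and did not pass. It was at 185 CPM in saline 1 and 73.0 CPM in saline 2. In the other 4, where Inha was nearly equal, it ranged from 5.86 CPM in saline 5 to 34.2 CPM in saline 4. The transcription factor genes Foxl2 (slope -0.08 ± 0.25), Nr5a2 (-0.08 ± 0.08) and Foxo1 (0.33 ± 0.12) did not pass either, nor did Id1, a target of BMP signals (-0.79 ± 0.20).

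**Figure D2:**
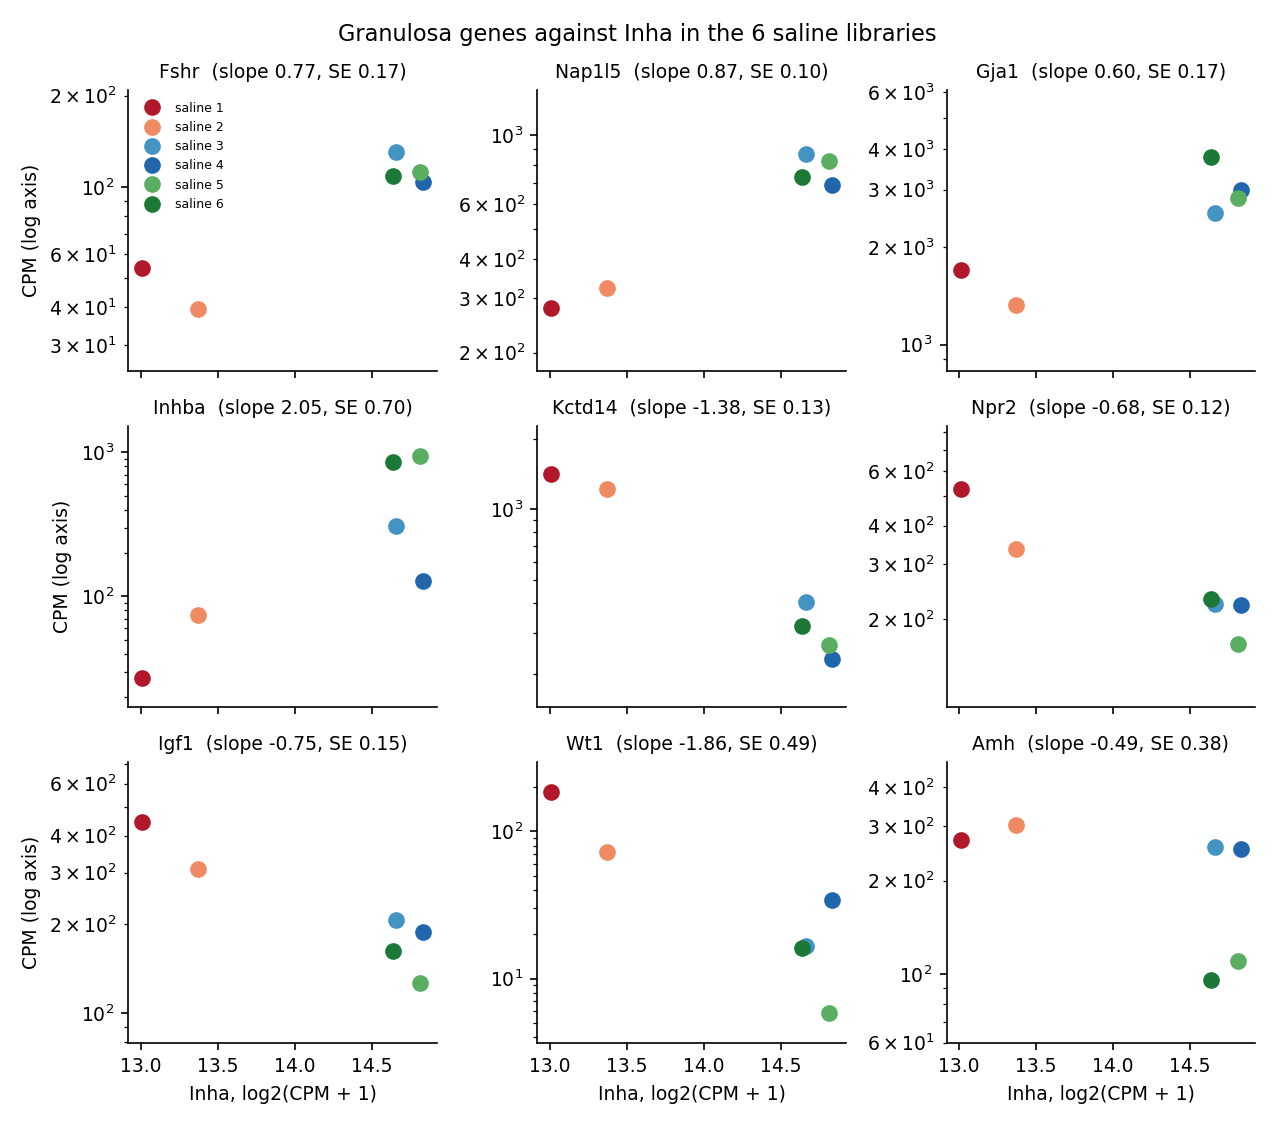
CPM on a log axis against Inha, as log2(CPM + 1), for 9 granulosa genes, 1 point per saline library, with the slope and its SE in each title. Fshr, Nap1l5 and Gja1 are higher in all of saline 3 to 6 than in saline 1 and 2, Kctd14, Npr2, Igf1 and Wt1 are lower, and Inhba and Amh split saline 5 and 6 from saline 3 and 4.

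Of 28 genes for atresia and apoptosis 14 had enough reads. Of the 14, 1 rose (7.14%) and 2 fell (14.3%), Igfbp5 among them, beside 2.18% and 6.43% of all genes. The gene that rose was Itih5, an inter-alpha-trypsin inhibitor heavy chain (32.9 and 34.6 CPM in saline 1 and 2, 93.7 to 202 CPM in the others). Luteinization and ovulation genes were mostly too low to describe, with 7 of 21 reaching 20 CPM and none of the 7 passing the limit on r; 5 of the 7 slopes were positive.

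Outside the granulosa list, the genes that rose with the highest r and a slope of at least 0.5 were of several kinds. Ctsl, the lysosomal protease cathepsin L, was at 1995 and 2693 CPM in saline 1 and 2 and at 5289 to 6420 CPM in saline 3 to 6, with a slope of 0.87 ± 0.08. Sema3b, a secreted semaphorin, had 3.75 and 4.87 CPM against 27.3 to 43.7 CPM (slope 1.71 ± 0.11), and Fhl1, a LIM-domain protein, had 0.932 and 1.49 CPM against 21.2 to 54.2 CPM (slope 2.46 ± 0.25). Both were near the floor of detection in the low-Inha libraries, so their slopes depend on the 1 added to each CPM. Also among the 15 highest were Art4 (1.42 ± 0.09), the transmembrane protein gene Heg1 (0.58 ± 0.05), the secreted factor Metrnl (0.69 ± 0.07), Ass1 (0.78 ± 0.09), the argininosuccinate synthase, and Slc35b2 (0.75 ± 0.09), a sulphate-donor transporter of the Golgi. The first in order of r was Ndufv1, described with the respiratory chain.

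Among the genes that fell with a slope of at least 0.5 in size, the lowest r was that of Ybx3, a Y-box RNA-binding and DNA-binding protein. It was at 203 and 185 CPM in saline 1 and 2 and at 64.4 to 74.5 CPM in the other 4, with a slope of -0.94 ± 0.04. Zmym3, a chromatin-associated zinc finger protein, was at 497 and 416 CPM against 159 to 170 CPM (slope -0.93 ± 0.05). Each pair of levels was tight on both sides, which is what a correlation near -1 describes here. Others were Tnrc6a (slope -0.78 ± 0.04), a partner of Argonaute in microRNA silencing, Ccnt1 (-0.59 ± 0.04), the cyclin of the elongation factor P-TEFb, Cpsf7 (-0.82 ± 0.06), a 3′-end processing factor, and Atad2 (-1.15 ± 0.10), a bromodomain ATPase. Anapc1, a subunit of the anaphase-promoting complex, had a slope of -0.63 ± 0.06 and Fancl, the ubiquitin ligase of the Fanconi pathway, one of -0.59 ± 0.05. Vcan, the matrix proteoglycan versican, was at 166 and 151 CPM against 37.5 to 47.7 CPM (slope -1.24 ± 0.09), and Rap2b, a small GTPase, at 137 and 76.5 CPM against 9.48 to 15.5 CPM (slope -1.94 ± 0.15). In all of these genes saline 1 and 2 lay above the other libraries without overlap, as in 25.6% of all genes. Inha itself falls into the same sets of libraries, so choosing genes with an r this low made such a gap all but certain.

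Cytosolic ribosomal protein genes had mostly positive slopes. All 82 listed genes had at least 20 CPM; 26 of them rose (31.7%, beside 2.18% of all genes), none fell, and 77 of 82 slopes were positive, with a median of 0.27 beside -0.13 for all genes. The 2 subunits were alike in this, with a median slope of 0.26 over 49 large-subunit genes and 0.30 over 33 small-subunit genes. Saline 1 and 2 were both lowest in 50 of the 82 genes, beside 8.97% of all genes. Under TMM factors 81 slopes were positive and with TPM, the authors' length-scaled unit, 71, and 80 of 82 lay above the median of all genes with each of these scalings.

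Rps27, of the small subunit, was at 249 and 257 CPM in saline 1 and 2 and at 589 to 754 CPM in saline 3 to 6, with a slope of 0.88 ± 0.08. Rpl13, of the large subunit, was at 3623 and 4497 CPM against 6022 to 7022 CPM (slope 0.47 ± 0.04). The lower and higher Inha libraries did not overlap in either gene. Rpl4 (slope 0.54 ± 0.05), Rps28 (0.82 ± 0.10) and Rps19 (0.48 ± 0.06) had the same pattern. Ribosomal protein genes together took 7.84% and 8.33% of the reads in saline 1 and 2 and 10.9%, 12.2%, 12.6% and 10.4% in saline 3 to 6, and 6.38% to 9.39% in the 4 NAC libraries. The many processed copies of these genes in the genome make single values uncertain, since reads shared between copies were divided by the quantification.

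Promoter letters were counted in the groups as well. Of 61 ribosomal genes found in the RefSeq table, 14 (23.0%) had the pyrimidine run at the start site, beside 3.09% of the 5949 matched genes of those at 20 CPM or more, and 41.0% held the ETS string beside 24.3%. Of the 124 matched rising genes, 5.65% held the cyclic AMP response element and 4.84% the SF-1 and LRH-1 string, beside 4.02% and 3.68% of expressed genes. Without the ribosomal protein genes, of which 9.84% held the response element, the shares among the other 106 rising genes were 3.77% and 4.72%. Of the 373 matched falling genes, the shares were 4.56% and 2.14%. Over all 27025 genes of the table the response element was found in 2.03% and the SF-1 and LRH-1 string in 5.38%. The pyrimidine run, common in the ribosomal list, was in 1.61% of the 124 rising genes, beside 3.09% of expressed genes. The ETS string was in 23.4% of the rising genes beside 24.3%, and the YY1 string in 3.23% beside 6.71%. AGATAA was in 7.26% beside 6.67%, and the FOXO string in 3.23% beside 3.11%.

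Other parts of translation had a smaller share of positive slopes than the 93.9% of the cytosolic ribosome. Of 34 initiation and elongation factor genes 2 rose (5.88%) and 4 fell (11.8%), beside 2.18% and 6.43% of all genes. Of their slopes 41.2% were positive, the median was -0.03, and 22 lay above the median of all genes. The summed level of these 34 genes was nonetheless lower in saline 1 and 2, at 24291 and 20362 CPM, than in the others, at 28718 to 31457 CPM. Eif4h, which stimulates the helicase eIF4A, had a slope of 0.40 ± 0.05, and Eif4a2, a form of that helicase, one of -0.59 ± 0.11. Of 77 mitochondrial ribosomal protein genes 2 rose (2.60%) and 8 fell (10.4%), beside 2.18% and 6.43% of all genes. Their median slope equalled that of all genes, -0.13. Mrpl13 (slope -0.43 ± 0.06) and Mrpl47 (-0.55 ± 0.09), both of the large mitochondrial subunit, were among those that fell.

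Respiratory chain genes had slopes near 0 that differed by complex. Of 78 nuclear genes for the chain and the ATP synthase, 3 rose (3.85%) and none fell, the median slope was 0.04, and 61 of 78 lay above the median of all genes. With TPM the median was -0.05 and 33 slopes were positive in place of 44, while 59 still lay above the median of all genes; with TMM factors 64 were positive. By complex, 12 of 37 slopes were positive in complex I, 20 of 25 in complexes II to IV and 12 of 16 in the ATP synthase, with medians of -0.06, 0.11 and 0.13. Without saline 4 the median of the 78 was 0.10 with 51 positive slopes, and the slope of the complex I score was 0.02 in place of -0.06. The list score, the mean centred log2 CPM of the members, was -0.04, -0.05, 0.12, -0.20, 0.06 and 0.11 in saline 1 to 6, so saline 4, the library with the highest Inha, was the lowest.

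Ndufv1, the flavin-bearing subunit of complex I, was at 127 and 139 CPM in saline 1 and 2 and at 229 to 249 CPM in saline 3 to 6, with a slope of 0.54 ± 0.03 that stood apart from the rest of its complex. Cox4i1, a subunit of complex IV, ran from 879 CPM in saline 1 to 1185 CPM in saline 5 (slope 0.21 ± 0.04). Atp5b, the catalytic beta subunit of the ATP synthase, was at 1425 and 1047 CPM against 2485 to 2869 CPM, with a slope of 0.72 ± 0.15. These were the 3 that rose; Uqcrb, of complex III, had a slope of -0.56 ± 0.17 and Ndufab1, the acyl carrier protein of complex I, one of -0.37 ± 0.13, without passing. The 13 mitochondrially encoded genes with enough reads had 10 negative slopes and none past the limit. Of these, mt-Atp6 was at 330 and 344 CPM in saline 3 and 4 and at 1194 to 1568 CPM in the other 4, and thus did not follow Inha.

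Genes of DNA replication and of mitosis had mostly negative slopes. Of 36 replication genes 7 fell (19.4%, beside 6.43% of all genes), none rose and 31 slopes were negative, with a median of -0.32. Gins1, of the replicative helicase, was at 63.8 and 43.8 CPM in saline 1 and 2 and at 20.3 to 29.5 CPM in the others (slope -0.71 ± 0.10). Lig1, the ligase that joins Okazaki fragments, was at 252 and 268 CPM against 99.9 to 146 CPM (slope -0.72 ± 0.14), and Tyms, thymidylate synthase, at 177 and 196 CPM against 110 to 138 CPM (slope -0.39 ± 0.08). Levels of the 3 genes, picked for their large r, did not overlap. Saline 1 and 2 were both highest in 16 of the 36 replication genes (44.4%), beside 25.6% of all genes. Of 33 mitosis genes only Mki67, the proliferation marker Ki-67, fell (3.03%, a smaller share than the 6.43% of all genes). It was at 658 and 552 CPM in saline 1 and 2 and at 212 to 336 CPM in the others, with a slope of -0.77 ± 0.13. The median of the 33 slopes was -0.29 and 30 were negative.

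The 2 programmes differed in saline 6. The replication score was 0.34, 0.24, 0.02, -0.32, -0.15 and -0.12 in saline 1 to 6, with the 2 low-Inha libraries on top. The mitosis score was 0.30, 0.30, -0.38, -0.34, -0.18 and 0.31, so saline 6 was as high as saline 1 and 2, and without saline 6 the slope of the score was -0.37 ± 0.07 in place of -0.30 ± 0.15. Kif23, of the central spindle, and Stmn1, a microtubule destabiliser, had slopes of -0.89 ± 0.24 and -0.37 ± 0.10 and did not pass. With TMM factors the median slopes were nearer 0, -0.13 for replication and -0.11 for mitosis, beside 0.03 for all genes.

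**Figure D3:**
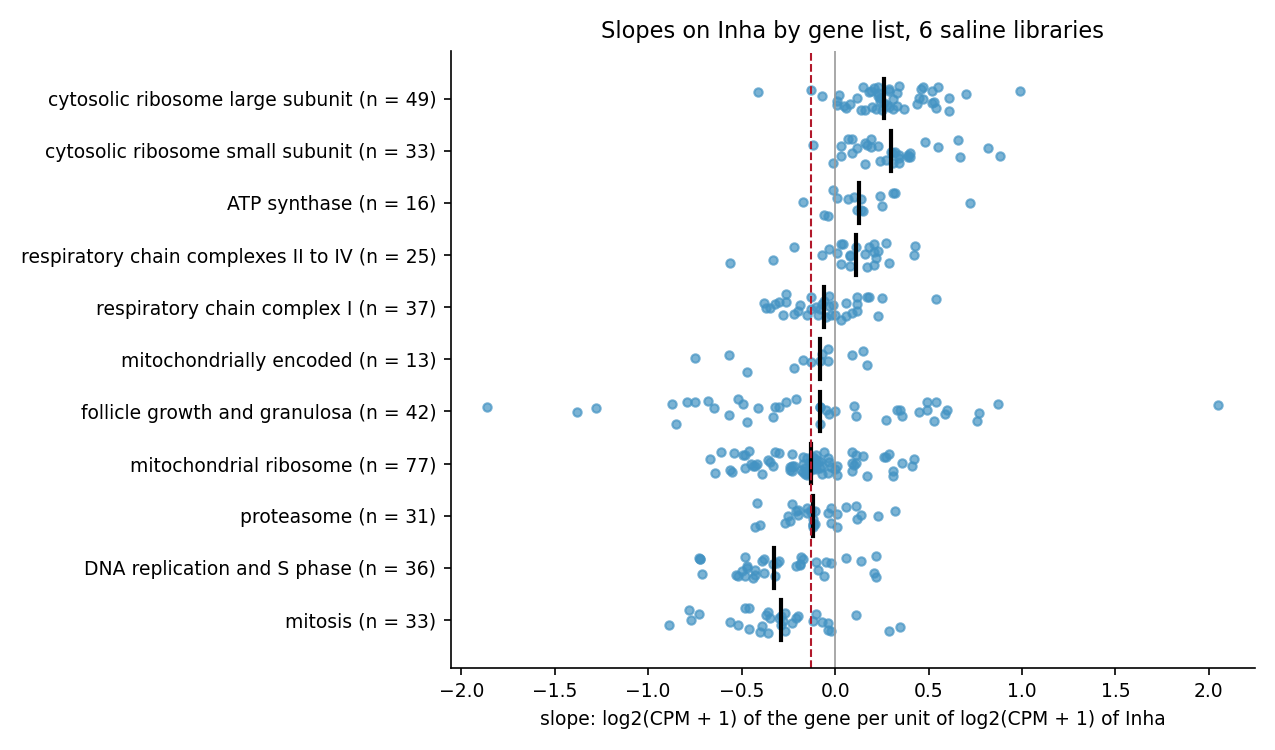
Slope of log2(CPM + 1) on that of Inha for each gene (points, spread vertically at random) of 11 lists, with the list's median as a black bar, the median of all 7479 genes (-0.13) as a dashed red line and 0 as a grey line. The 2 cytosolic ribosomal lists lie mostly right of 0 and the mitochondrial ribosome mostly left of 0. Replication and mitosis lie mostly left of the median of all genes, and the follicle growth list spreads over both sides.

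**Figure D4:**
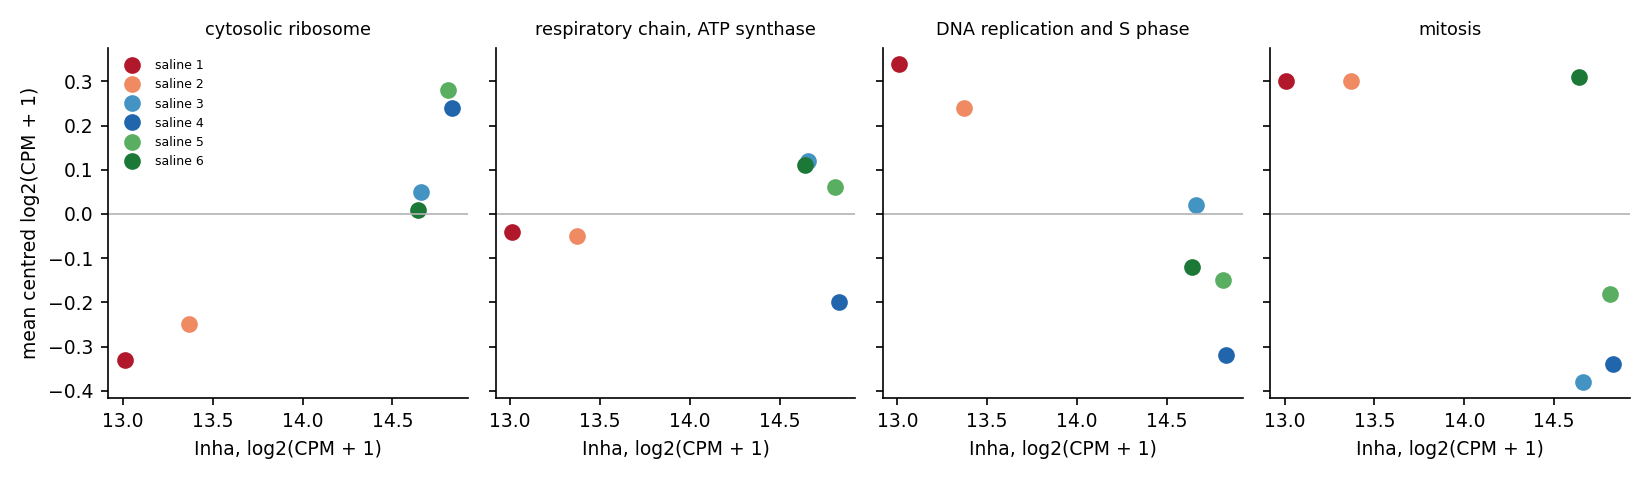
Mean centred log2(CPM + 1) of 4 lists in each saline library against Inha as log2(CPM + 1), 1 point per library, with 0 as a grey line. The ribosome score is below 0 in saline 1 and 2 alone, the respiratory chain score is lowest in saline 4, and the mitosis score is high in saline 1, 2 and 6.

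Slopes also ran with gene properties that the choice of genes did not use. With the genes split into 4 equal bins by the length of their longest annotated transcript, from shortest to longest, the median slope was -0.04, -0.05, -0.17 and -0.30, and the share of genes that fell went from 3.39% to 12.0%. In 4 bins of GC content, from lowest to highest, it was -0.26, -0.16, -0.07 and -0.03. The median longest transcript was 2328 bases in the genes that rose, 4688 bases in those that fell and 3387 bases in all. After the median slope of genes of like length and GC content was subtracted from each gene, the mean slope was 0.34 for the cytosolic ribosome, -0.16 for replication, -0.14 for mitosis and 0.05 for follicle growth. The subtraction also took out the general level of the slopes, a median of -0.13 over all genes. These means therefore have a different zero from the other list slopes, and their distance from those is not the part of length and GC content. The part of length and GC content in single genes was not tested.

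The split into rising and falling genes depended on the scaling. TMM factors gave 346 rising and 178 falling genes, 66.0% of calls rising in place of 25.3%, and moved the median slope of all genes from -0.13 to 0.03. TPM gave 99 and 532 (15.7% rising), and a library total without Inha gave 177 and 437. All 163 rising genes kept a positive slope with TMM factors and 161 with TPM, and 479 and 478 of the 481 falling genes kept a negative one. These genes were chosen by r in the same libraries, so the kept signs were largely fixed by that choice and are no support for the calls.

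**Figure D5:**
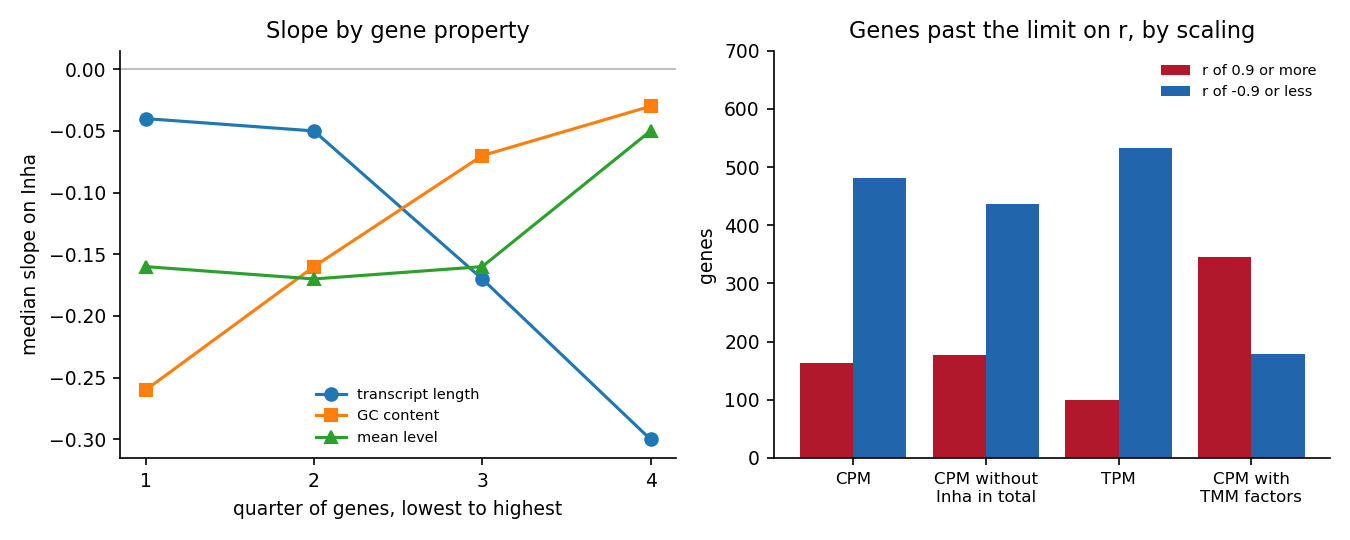
Left, median slope on Inha in 4 equal bins of the genes by transcript length, GC content and mean level, lowest to highest; right, bars from 0 for the number of genes with r of at least 0.9 (red) or at most -0.9 (blue) under 4 scalings. The bin of longest transcripts has a median slope of -0.30 and the shortest -0.04, and TMM factors give more rising than falling genes (346 and 178) whereas the other 3 scalings do not.

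The NAC libraries, which had no part in choosing the genes, offer the same slope over 4 more captures of granulosa cells, though NAC 2 alone sets the low end of their Inha range and NAC 2 and NAC 3 held only 507418 and 115718 reads. Of 6966 genes with at least 20 CPM there, 55.4% had a positive slope and 44.6% a negative one. Of the rising genes 86 of 144 (59.7%) had a positive slope, and of the falling genes 239 of 471 (50.7%) a negative one, both near the background. Without NAC 2 the shares were 44.2% and 63.2%, beside 44.9% and 55.1% of all genes. The ribosomal genes did not keep their direction: 25 of 82 slopes were positive over the 4 NAC libraries, with a median of -0.34, and 24 of 36 replication genes had positive slopes.

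Single members can be set beside the saline libraries by value. Vcan was at 138 to 248 CPM in the 4 NAC libraries, near or above saline 1 and 2. Fshr was at 27.1 to 62.1 CPM and Ctsl at 1435 to 1996 CPM, near saline 1 and 2 and below saline 3 to 6. Rps27, at 242 to 512 CPM, was above saline 1 and 2 in 3 of 4 NAC libraries, Metrnl, at 105 to 173 CPM, in all 4, and Nap1l5, at 70.7 to 146 CPM, was below every saline library. No difference between the treatments was tested here.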

How the data were processed

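Polyadenylated RNA from laser-captured granulosa cells was sequenced in 10 libraries, 6 saline and 4 NAC, grouped by their labelled treatment. Reads had been quantified by gene with Salmon against GRCm38, according to the submitters' processing notes, and no version is stated in the labels. The deposited table of each library gives estimated counts, TPM and transcript lengths in bases, per the file headers. The estimated counts were used unrounded, and the deposited TPM served as an alternative. Rows named by a transcript (1548, 0.547% to 0.634% of a saline library's reads) were left out, and CPM was computed over the total of the 35087 symbol rows. No 2 saline libraries agreed within sampling noise (chi-square per degree of freedom at least 8.14), so each was kept as a library of its own. That does not show that they came from different animals, which the labels do not tell. The RNA was amplified, so reads do not count molecules.

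Least-squares slopes, Pearson r and Spearman rho of log2(CPM + 1) on that of Inha were computed with numpy 2.4.6, pandas 2.3.3 and scipy 1.17.1, and checked on simulated data. TMM factors came from edgeR 4.0.16 in R 4.3.3; no test was run. Lengths, GC content and positions came from the GENCODE annotation of GRCm38 (7427 of the 7479 genes matched), and promoters from RefSeq. The libraries, the gene lists (29) and the limits were chosen with earlier results of these data known.

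Genes could be named if they were among the 15 with the highest or the 15 with the lowest r (slope at least 0.5 in size, no pseudogene or predicted symbol), in the follicle growth list, or among the 4 members of another list with the largest r in size. This gave 158 genes, of which 69 are described; values of some others are not reported here. Alternatives were the scaling (TMM, TPM, a total without Inha), pseudocounts of 0.5 and 5, mean CPM limits of 100, 5 and any read, limits on r of 0.8 and 0.95, Spearman's rho, each library left out, the 2 libraries farthest from the median or richest in oocyte RNA left out, and an oocyte, stroma or depth covariate. Chosen after seeing the data were thinning to the shallowest library, slopes minus the median of their cell of length and GC content, and the NAC slopes without NAC 2.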

Additional observations from a re-analysis of the deposited data

Results flagged for a closer look

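Among 70 values checked over the 6 saline libraries (Inha and the 69 genes described), 3 had a library far from the others by Dixon's criterion at the 95% level, and chance alone marks about 1 in 20 such groups. All 3 were the highest library and all were saline 1. Wt1 was at 185 CPM in saline 1, with the next library at 73.0 CPM. Igf1r was at 490 CPM in saline 1, with the next at 276 CPM, and Igfbp5 at 228 CPM, with the next at 86.1 CPM. In each gene the next library was saline 2, the other library with low Inha.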

How the results depend on the processing

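No paired analysis was possible because the results come from no test and all describe 1 group. The rise and fall counts changed with the settings as follows. TMM factors gave 346 rising and 178 falling genes, TPM 99 rising, a mean of 100 CPM or more 89 and 141, and any read 297 and 766. Limits on r of 0.8 and 0.95 gave 377 and 1224, and 64 and 142; Spearman's rho of 0.9 gave 87 and 305. Leaving out 1 library, which also makes an r of 0.9 easier to reach, gave 205 to 479 rising and 629 to 746 falling genes; without saline 1 (479 and 685) only 100 of the 163 and 263 of the 481 were shared, and without saline 2 (302 and 718) 134 and 390. Without saline 2 and 4 the counts were 571 and 1191, with the oocyte score as covariate 253 and 811, with the stroma and theca score 285 and 875, and with depth 260 rising. Leaving out 2 libraries, here and below, or adding a covariate likewise makes an r of 0.9 easier to reach. These counts therefore do not measure the part of oocyte or stromal RNA. With depth as a covariate 73 rising and 179 falling genes were shared; thinned to the shallowest library (150 and 425), 134 and 343 were.

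Slopes of list scores moved for follicle growth (-0.09) to 0.07 with TMM, -0.14 with TPM, -0.01 at 100 CPM or more and 0.05 within cells of length and GC; for replication (-0.29) to -0.10, -0.41, -0.23 and -0.16; for mitosis (-0.30) to -0.11 with TMM and -0.14 within cells; for the nuclear respiratory chain (0.03) to 0.17 with TMM and -0.06 with TPM; and for the ribosome (0.29) to 0.39 with TMM, 0.23 with TPM and 0.38 with depth as a covariate. Values within cells of length and GC also have the general level of the slopes taken out (median -0.13 over all genes). Those moves therefore do not measure the part of length and GC. The cause was not tested.

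Without saline 1 and 2, Inha ranged over only 0.19 on the log2 scale, and 288 rising and 423 falling genes included 20 and 54 of those above; 112 of the 163 and 342 of the 481 kept their sign. List slopes were then 0.28 for follicle growth, -1.08 for replication, -1.55 for mitosis, -1.12 for the respiratory chain and 1.32 for the ribosome. Of the 48 genes described that rose or fell, 8 slopes turned: Fshr (-0.74), Nap1l5 (-0.44), Itih5 (-0.37), Heg1 (-0.03), Ctsl (-0.10), Suclg1 (-0.23), Ccnt1 (0.13) and Mrpl13 (0.38). Of the 21 others, 8 turned: Gja1 (-0.69), Inhba (-4.51), Inhbb (-4.17), Fst (-0.46), Hsd17b1 (-2.99), Amh (1.32), Kif23 (0.53) and Foxl2 (4.35). In the other settings none of the 816 values of the 48 genes turned, and 8 of the 357 values of the 21 did (in Cyp19a1, Foxl2, Inhbb and Nr5a2). Of these 1173 values, 205 moved by at least the SE. The 48 genes were chosen by r in these same libraries, so their kept signs were largely fixed in advance and are no support for the calls. The 6 libraries limit every slope, and shallow saline 1 weighs on all of them.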

Other observations

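For gene groups not described above, counts over the 6 saline libraries stand beside the 2.18% of all genes that rose and the 6.43% that fell. Of 21 genes of the tricarboxylic acid cycle Suclg1, a subunit of succinyl-CoA ligase, rose (4.76%, slope 0.39 ± 0.09). Cs, citrate synthase (-0.33 ± 0.05), and Idh3a, of isocitrate dehydrogenase (-0.39 ± 0.06), fell (9.52%). The median slope of the 21 was -0.03. Of 33 antioxidant and glutathione genes 1 rose and 1 fell (3.03% each). Gpx3, the secreted glutathione peroxidase, rose from 41.3 and 96.3 CPM in saline 1 and 2 to 191 to 274 CPM in the others (slope 1.19 ± 0.19). Gstm2, a glutathione transferase with close paralogs, fell (-0.62 ± 0.13). None of 16 glycolysis genes, 16 cholesterol synthesis genes or 26 chaperone and unfolded protein genes passed the limit on r, with median slopes of 0.02, 0.04 and -0.12 beside -0.13 for all genes. Of 31 proteasome genes 1 rose (3.23%) and 2 fell (6.45%).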
